A study of Mus musculus with 16 samples.

Results

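Ifit3 and 8 further interferon-stimulated genes (Ifit3b, Ifit1, Irf7, Isg15, Oasl2, Bst2, Ifitm3 and Ifi27) were followed through mouse brain with and without Upf3b. The 9 genes, of 55266 in the annotated tables, were chosen by name, with Ifit3 picked on its low level in Upf3b-KO cerebellum and the others as widely used members of the same response. They carry 38 of the 142435 transcripts in the deposited tables. Because the cerebellar contrast between genotypes prompted the choice, its values and counts are given for these 9 genes as a description with no p-value. The genotype contrast in frontal cortex is the one in which they were tested. Per the paper both regions came from the same mice, and earlier results were known, so that test is not independent of the choice. The question was whether the low level of Ifit3 was shared by the other genes or stood alone.

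Interferons are cytokines released when a cell senses viral nucleic acid. They bind receptors on the cell surface, which act through the kinases Jak1 and Tyk2 to activate transcription factors, among them Stat2 and Irf9, that bind interferon-stimulated response elements in the promoters of a large set of genes. Some Ifit proteins bind viral RNA and restrain its translation. Irf7 is a transcription factor that amplifies the response, and Isg15 is a ubiquitin-like protein that is attached to other proteins. Oasl2 is a relative of the 2'-5' oligoadenylate synthetases, and Bst2 (tetherin) holds budding virions at the cell surface. Ifitm3 blocks the fusion of virus with endosomes, and Ifi27 encodes a small mitochondrial membrane protein. In healthy brain most of these genes are expressed at a low basal level. Upf3b encodes an adaptor protein of nonsense-mediated decay (NMD), which removes messenger RNAs with certain features, such as an early stop codon.

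Bulk RNA-seq was available for 16 libraries in 4 groups of 4, which were frontal cortex (FC) and cerebellum (Cere) from adult Upf3b-KO mice and from littermate Ctrl mice, with 4 mice of each genotype in the study. The labels name no treatment, and they give neither sex, exact age nor the structure of the KO allele, and they do not say that a replicate number is 1 animal in both regions, so p-values measure the spread between these libraries, which may be technical. Upf3b itself, on chromosome X, was at 14.8 ± 0.64 CPM (counts per library scaled to a common total, SD, n = 4) in Ctrl and 0.559 ± 0.26 CPM (n = 4) in Upf3b-KO frontal cortex, and at 22.7 ± 1.2 (n = 4) and 0.737 ± 0.2 CPM (n = 3) in cerebellum. Of the libraries, 15 held 27660078 to 35238677 counts, where 3 counts correspond to 0.0851 to 0.108 CPM. The remaining one, Upf3b-KO cerebellum replicate 1, held 64981 counts, so 3 counts correspond to 46.2 CPM. It gave 1 count each of Ifit3b and Ifitm3 and none of the other 7 genes, and it was left out of the values below unless stated, leaving n = 3 for that group. CPM is relative to the whole library, and the limits of 3 counts cover counting error only.

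In Upf3b-KO mice some cell-type markers moved in the same libraries. Summed over 12 choroid plexus markers, the level was 249 CPM in all Ctrl frontal cortex libraries and 5223 to 5275 CPM in Upf3b-KO, and in cerebellum 211 to 212 and 3470 to 3489 CPM. Summed over 13 microglia and macrophage markers, it went from 733 to 753 CPM in Ctrl to 803 to 818 CPM in Upf3b-KO frontal cortex, and from 272 to 279 to 362 to 370 CPM in cerebellum. The 18 endothelial and mural markers summed to 581 to 598 CPM in Ctrl and 665 to 677 CPM in Upf3b-KO frontal cortex, and to 550 to 559 and 563 to 571 CPM in cerebellum. Summed over 8 cerebellar neuron markers, the level was 9798 to 9953 CPM in Ctrl and 4197 to 4201 CPM in Upf3b-KO cerebellum, and over 8 astrocyte markers it was 4281 to 4336 CPM in Ctrl and 3415 to 3447 CPM in Upf3b-KO frontal cortex, and 4862 to 4907 and 3335 to 3364 CPM in cerebellum. Over 8 leptomeningeal fibroblast markers it was 156 to 167 and 96.1 to 104.8 CPM in frontal cortex, and 114 to 119 and 84.0 to 90.0 CPM in cerebellum. Over 6 ependymal and cilium markers it was 15.3 to 17.3 and 52.8 to 55.9 CPM in frontal cortex, and 9.05 to 10.1 and 23.03 to 24.8 CPM in cerebellum. Markers of both regions were present, and none of the marker lists had a marker at 0 in all libraries of a group except the list of 8 cortical neuron markers, with 1 at 0 in Ctrl cerebellum. That list summed to 1744 to 1808 CPM in Ctrl and 1703 to 1715 CPM in Upf3b-KO frontal cortex, and to 526 to 546 and 371 to 381 CPM in cerebellum. A sum follows its most abundant markers, and in some lists single markers went the other way. By log2 fold change, 4 microglia and macrophage markers were lower and 9 higher in frontal cortex, and 3 cortical neuron markers lower and 5 higher. In cerebellum 6 astrocyte markers were lower and 2 higher, and 6 endothelial and mural markers lower and 12 higher. In bulk tissue, fewer cells of a type and less RNA per cell cannot be told apart, and the part of these shifts in the results below was not tested.

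Ifit3 (ENSMUSG00000074896, GRCm39 chromosome 19, 34560899 to 34566443, plus strand) and Ifit3b (ENSMUSG00000062488, chromosome 19, 34585328 to 34590801, plus strand) are near copies of each other. Each has 1 annotated transcript (ENSMUST00000102825 and ENSMUST00000076249) of 2 exons with 1209 coding bases, and these coding sequences differ at 11 positions, an identity of 99.09%. The stretch of coding bases 229 to 288 is shown because it holds 4 of those differences, marked in capitals, 5′ to 3′ on the plus strand of GRCm39:
Ifit3: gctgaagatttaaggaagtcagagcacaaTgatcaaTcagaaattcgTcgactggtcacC
Ifit3b: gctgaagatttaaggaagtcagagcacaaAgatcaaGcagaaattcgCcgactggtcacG
Of the 1990 windows of 100 bases along the Ifit3 transcript, 529 (26.6%) also occurred in the Ifit3b transcript. A read pair lying wholly in such a stretch cannot be assigned to either gene, and the deposited counts divide it by estimation, so the split between these 2 genes is uncertain where their sum is not. No such window was shared with Ifit1, Ifit2, Ifit1bl1 or Ifit1bl2. Ifit1 shared 84 of its 7322 windows (1.15%) with Ifit1bl2.

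The 250 bases before the annotated start are printed for Ifit3, Ifit3b, Ifit1, Ifit2 and Isg15. They were chosen because they span large, small and opposite changes. Capitals mark each match to the core of the interferon-stimulated response element, spelled GAAANNGAAA, searched on both strands, and overlapping matches run together. All are from GRCm39, 5′ to 3′ on the strand of the gene.
Ifit3 (chr19:34560649-34560898, plus): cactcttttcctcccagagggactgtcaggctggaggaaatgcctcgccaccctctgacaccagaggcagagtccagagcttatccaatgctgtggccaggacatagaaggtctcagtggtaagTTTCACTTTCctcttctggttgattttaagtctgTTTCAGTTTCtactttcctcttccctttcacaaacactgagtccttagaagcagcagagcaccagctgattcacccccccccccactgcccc
Ifit3b (chr19:34585078-34585327, plus): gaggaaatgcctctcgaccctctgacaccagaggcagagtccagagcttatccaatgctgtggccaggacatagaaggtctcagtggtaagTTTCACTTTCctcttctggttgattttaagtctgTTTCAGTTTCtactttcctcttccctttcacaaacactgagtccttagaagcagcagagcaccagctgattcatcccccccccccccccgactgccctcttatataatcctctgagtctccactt
Ifit1 (chr19:34618021-34618270, plus): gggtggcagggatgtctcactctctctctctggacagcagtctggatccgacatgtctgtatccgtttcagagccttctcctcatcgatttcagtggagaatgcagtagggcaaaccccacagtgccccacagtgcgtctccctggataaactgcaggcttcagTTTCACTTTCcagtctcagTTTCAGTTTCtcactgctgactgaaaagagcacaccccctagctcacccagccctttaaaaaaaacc
Ifit2 (chr19:34527795-34528044, plus): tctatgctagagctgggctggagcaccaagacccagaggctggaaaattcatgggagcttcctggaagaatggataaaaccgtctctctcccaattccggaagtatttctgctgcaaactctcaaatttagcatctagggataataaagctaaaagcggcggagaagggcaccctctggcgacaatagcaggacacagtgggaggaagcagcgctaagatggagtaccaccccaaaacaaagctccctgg
Isg15 (chr4:156285304-156285553, minus): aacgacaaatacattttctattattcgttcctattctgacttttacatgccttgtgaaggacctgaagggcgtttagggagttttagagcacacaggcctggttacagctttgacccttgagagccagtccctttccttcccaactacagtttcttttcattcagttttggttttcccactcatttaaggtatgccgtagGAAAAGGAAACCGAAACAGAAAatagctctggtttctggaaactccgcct
The core occurred in the window of 7 of the 9 genes, of 20 of 65 other interferon-stimulated genes (30.8%) and of 658 of 20149 protein-coding genes (3.27%). Its first base lay 126 and 92 bases before the start in Ifit3, 159 and 125 in Ifit3b, and 86 and 67 in Ifit1. Isg15 held 3 overlapping cores from 50, 44 and 38 bases, Bst2 held 2 from 132 and 126 bases, Ifi27 held 1 at 25 bases and Oasl2 held 1 at 244 bases, before the start of its transcript with the highest mean. That Oasl2 window lies inside the gene, downstream of the start of the protein-coding ENSMUST00000031542, so its match is not upstream of the gene. These letters were not in the windows of Irf7, Ifitm3 and Ifit2. A match is a description of the sequence and not a measured binding site.

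In frontal cortex, Ifit3 fell by 3.30 on the log2 scale in Upf3b-KO, and Ifit3b fell by 1.78, while the other members changed by less than 2-fold. Ifit3 was at 11.6, 14.04, 15.5 and 13.5 CPM in the Ctrl libraries and at 1.30, 1.86, 1.28 and 1.39 CPM in the Upf3b-KO libraries. Every Upf3b-KO library lay far below every Ctrl library. The mean was 13.7 ± 1.6 CPM (SD, n = 4) in Ctrl and 1.46 ± 0.27 CPM (n = 4) in Upf3b-KO, 9.85-fold lower in the fit (log2 fold change -3.30, SE 0.128, Benjamini-Hochberg adjusted p = 3.68e-15 in edgeR's quasi-likelihood F test of 18218 genes). By this log2 fold change Ifit3 ranked 25 of 18218 from the lowest. For Ifit3b, the Ctrl libraries gave 10.8, 8.42, 9.07 and 8.48 CPM and the Upf3b-KO libraries 3.04, 2.23, 3.17 and 2.83 CPM. The ranges were apart, and the log2 fold change was -1.78 (SE 0.124, adjusted p = 6.92e-11, edgeR), which ranked 60.

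Ifit1 (ENSMUSG00000034459, chromosome 19, 34618271 to 34632174) changed in the same direction but by less. Its Ctrl libraries gave 3.51, 3.96, 3.07 and 3.48 CPM and its Upf3b-KO libraries 1.85, 2.79, 1.98 and 2.70 CPM. The groups did not overlap, and the log2 fold change was -0.67 (SE 0.159, adjusted p = 0.00128, edgeR), 1.59-fold lower.

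The 6 members outside the Ifit family were not lower in Upf3b-KO frontal cortex. Bst2, the tetherin gene, was at 1.71, 2.55, 2.35 and 2.08 CPM in Ctrl and rose to 3.78, 3.20, 3.20 and 4.22 CPM in Upf3b-KO (log2 fold change 0.65, SE 0.157, adjusted p = 0.00133, edgeR). Ifitm3, the endosomal restriction factor, rose from 9.29 ± 0.6 to 11.8 ± 0.49 CPM (SD, n = 4 each), a log2 fold change of 0.27 (SE 0.0767, adjusted p = 0.00575, edgeR). Ifi27 rose from 25.8 ± 0.94 to 31.6 ± 1.3 CPM (n = 4 each), a log2 fold change of 0.22 (SE 0.0472, adjusted p = 0.0005, edgeR). For each of these 3 genes all Upf3b-KO libraries lay above all Ctrl libraries.

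For the remaining members the test was not passed. Isg15, the ubiquitin-like modifier, was at 0.811, 0.788, 0.696 and 0.621 CPM in Ctrl and 1.13, 0.915, 1.09 and 1.05 CPM in Upf3b-KO, with no overlap but few counts behind each value (log2 fold change 0.44, SE 0.266, adjusted p = 0.172, edgeR). Irf7, the transcription factor, was at 0.931, 1.12, 1.42 and 0.931 CPM in Ctrl and 1.31, 1.67, 1.81 and 1.82 CPM in Upf3b-KO, with 1 Upf3b-KO library inside the Ctrl range (log2 fold change 0.50, SE 0.223, adjusted p = 0.0628, edgeR). Without Ctrl replicate 3 or Upf3b-KO replicate 1 its adjusted p was 0.0307 or 0.0397 (edgeR). Oasl2 was at 3.80 ± 0.46 and 4.31 ± 0.69 CPM (SD, n = 4 each), and its groups overlapped (log2 fold change 0.10, SE 0.136, adjusted p = 0.557, edgeR).

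Counted together, 2 of the 9 members were called lower in frontal cortex at an adjusted p under 0.01 and over 2-fold, the study's thresholds, and 0 were called higher. Over all genes the same rule called 1.06% lower and 9.16% higher. With the limit set at an adjusted p under 0.05 and any fold, 3 members were lower and 3 higher, against 25.3% and 28% of all genes. The 2 groups did not overlap for 7 of 9 members, against 48.4% of all genes tested. These counts include Ifit3, on which the choice rested, and its near copy Ifit3b, which are the 2 called lower. Nothing is read from them. The members' median log2 fold change was 0.22, and that of all genes was 0.004.

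**Figure D1:**
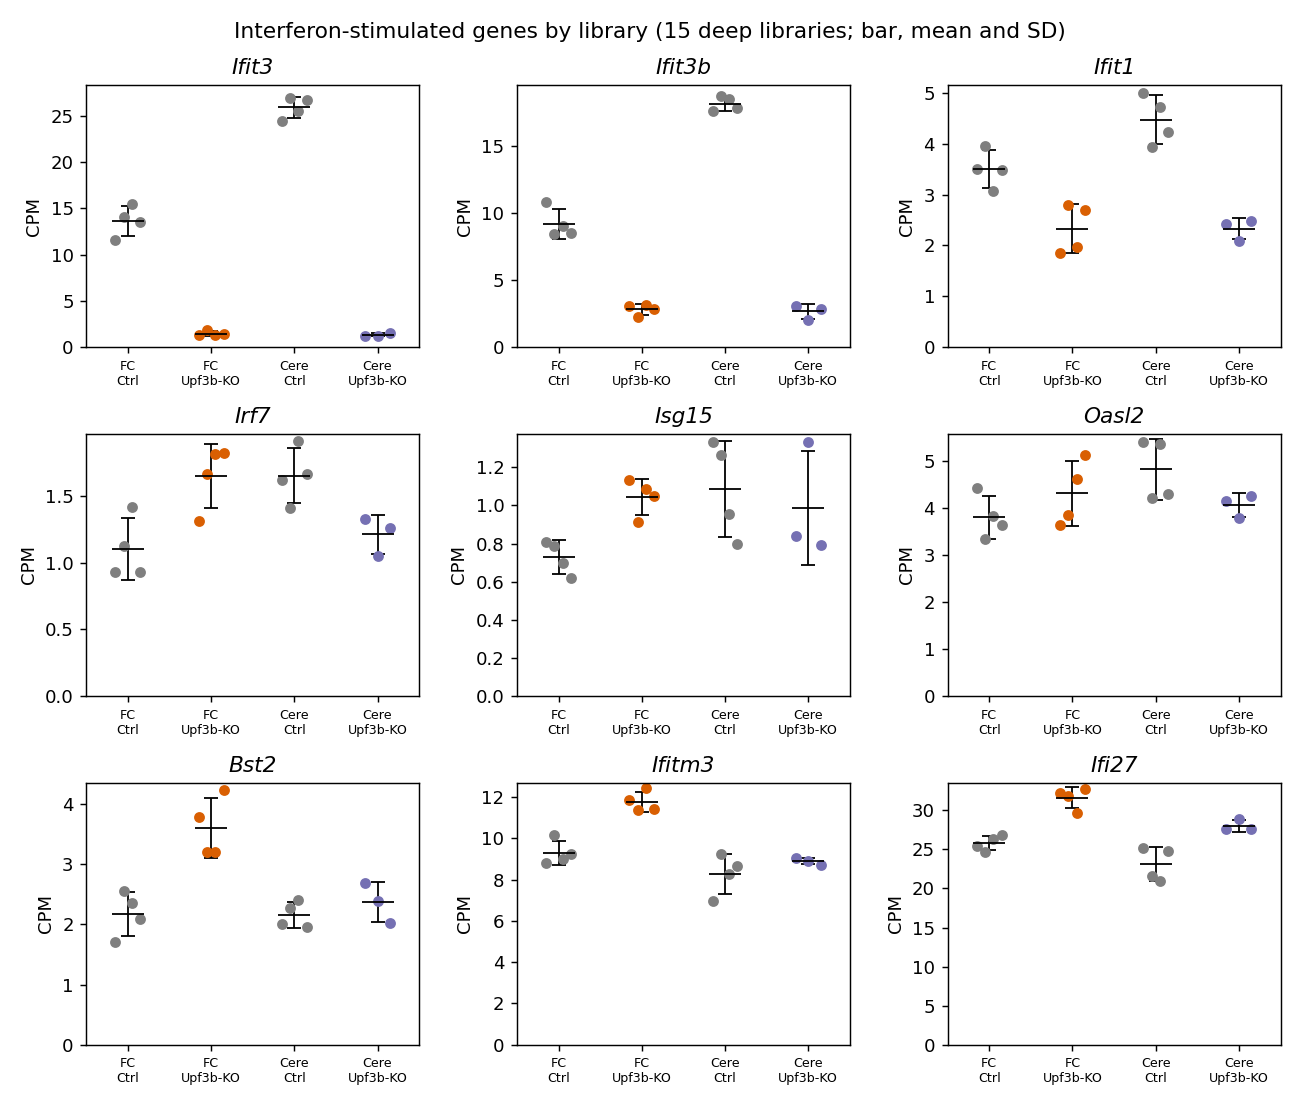
CPM (vertical axis, linear, starting at 0) of each of the 9 genes in the 15 deep libraries, by group; each point is a library and the bars give the mean and SD. Ifit3, Ifit3b and Ifit1 sit lower in Upf3b-KO in both regions with no overlap, whereas Bst2, Ifitm3 and Ifi27 sit higher in Upf3b-KO frontal cortex.

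In cerebellum, where the choice of Ifit3 was made, it was at 24.5, 27.0, 25.6 and 26.7 CPM in Ctrl and at 1.23, 1.23 and 1.51 CPM in the 3 deep Upf3b-KO libraries. The log2 fold change was -4.34 (SE 0.0992), or 20.3-fold lower. Ifit3b was at 17.6, 18.7, 18.5 and 17.9 CPM in Ctrl and 3.10, 2.03 and 2.86 CPM in Upf3b-KO (log2 fold change -2.82, SE 0.115). Both genes were far apart between the groups.

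Ifit1 was at 4.999, 3.94, 4.72 and 4.23 CPM in Ctrl cerebellum and 2.43, 2.09 and 2.47 CPM in Upf3b-KO (log2 fold change -0.99, SE 0.145), again without overlap and next to the 2-fold limit. Leaving out Ctrl replicate 2 or 4 or Upf3b-KO replicate 2 or 4 took it past that limit, to between -1.01 and -1.05, and leaving out any of the other 3 libraries did not. Irf7 was at 1.62, 1.41, 1.91 and 1.66 CPM in Ctrl and 1.33, 1.05 and 1.26 CPM in Upf3b-KO (log2 fold change -0.50, SE 0.223), so its groups were apart in the direction opposite to that of its frontal cortex estimate. Ifi27 was the single member higher in all Upf3b-KO libraries, at 23.1 ± 2.2 CPM (SD, n = 4) and 28.02 ± 0.77 CPM (n = 3), a log2 fold change of 0.23 (SE 0.0628).

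Isg15, Oasl2, Bst2 and Ifitm3 overlapped between the cerebellar groups. Their log2 fold changes were -0.19 (SE 0.289), -0.30 (SE 0.133), 0.08 (SE 0.174) and 0.05 (SE 0.104). Isg15 in particular ranged from 0.795 to 1.33 CPM in Ctrl and from 0.793 to 1.33 CPM in Upf3b-KO. Leaving out 1 library at a time moved its log2 fold change to between -0.47 and -0.050.

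By the study's thresholds 2 members were lower and 0 higher in cerebellum, where the rule called 2.86% and 10.3% of 17785 genes. At an adjusted p under 0.05 these counts were 3 lower and 1 higher, where it called 31.3% and 33.1% of all genes. For 5 of 9 members the groups did not overlap, against 63.4% of all genes. These cerebellar counts include the value that led to the choice, and nothing is read from them. The members' median log2 fold change was -0.30, against 0.008 for all genes.

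**Figure D2:**
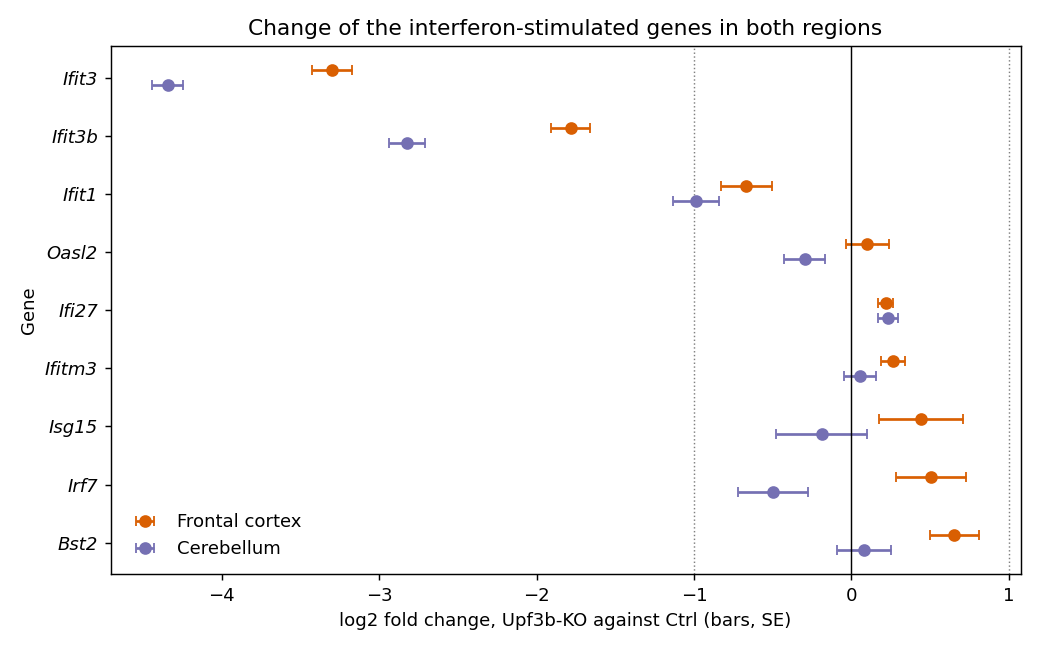
Log2 fold change of Upf3b-KO against Ctrl (horizontal axis, bars are SE) for the 9 genes in frontal cortex and cerebellum; dotted lines mark 2-fold. Ifit3 lies at -3.30 and -4.34 and Ifit3b at -1.78 and -2.82, while the 6 genes outside the Ifit family lie within 2-fold in both regions.

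Set side by side, the log2 fold change in cerebellum minus that in frontal cortex was -1.05 for Ifit3 (SE 0.19) and -1.05 for Ifit3b (SE 0.183), and -1.01 for Irf7 (SE 0.301). It was -0.33 for Ifit1 (SE 0.219), -0.59 for Bst2 (SE 0.232) and 0.003 for Ifi27 (SE 0.0785). They come from a single fit over the 15 deep libraries of both regions, with its own scaling, and so depart slightly from the difference of the values given above for each region. These differences were not tested, since the cerebellar values entered the choice.

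Because the near copies share reads, Ifit3 and Ifit3b were also summed. The sum was 22.9 ± 1.1 CPM (SD, n = 4) in Ctrl and 4.28 ± 0.16 CPM (n = 4) in Upf3b-KO frontal cortex, and 44.1 ± 1.5 CPM (n = 4) and 3.99 ± 0.63 CPM (n = 3) in cerebellum. The log2 fold change of the sum was -2.49 (SE 0.0736, adjusted p = 3.42e-17 by edgeR) in frontal cortex and -3.52 (SE 0.0774) in cerebellum. Ifit3 made up 59.7% of the sum in Ctrl and 34.3% in Upf3b-KO frontal cortex, and 58.8% and 33.6% in cerebellum. The sum does not depend on how the estimated counts were divided between the 2 genes, whereas the size of the change in either gene alone does.

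The order of the members by level changed with it. Per kilobase of transcript, Ifi27 (13.1 CPM per kb), Ifitm3 (7.27) and Ifit3 (6.54) led in Ctrl frontal cortex and were followed by Ifit3b (4.51), Bst2 (2.69), Oasl2 (1.80), Isg15 (0.932), Irf7 (0.531) and Ifit1 (0.472). The library ranges of Ifitm3 and Ifit3 overlapped, as did those of Irf7 and Ifit1. In Upf3b-KO frontal cortex, Ifit3 was the eighth of 9 at 0.698 CPM per kb, a level that overlapped that of Irf7 (0.873) and stood above that of Ifit1 (0.314). In Ctrl cerebellum Ifit3 was the highest at 12.4 CPM per kb, with no overlap with Ifi27 (10.9) or Ifit3b (8.90). In Upf3b-KO cerebellum it was at 0.635 CPM per kb, overlapping Irf7 (0.595).

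Between the Ctrl groups, which also serve as the controls of both contrasts above, Ifit3 was higher in cerebellum than in frontal cortex by 0.87 on the log2 scale (SE 0.071), given as a description. The members' differences here are given with no p-value, since the Ctrl cerebellar libraries belong to the contrast that led to the choice. Both regions came from one set of 4 Ctrl mice, and no label ties a library of one region to one of the other. The difference was 0.93 for Ifit3b (SE 0.0801), 0.52 for Irf7 (SE 0.22) and 0.30 for Ifit1 (SE 0.126). It was -0.22 for Ifi27 (SE 0.0594) and -0.22 for Ifitm3 (SE 0.0957). No member was past the study's thresholds, where 25.1% of all genes were called. With no fold limit 2 were lower and 4 higher in cerebellum, against 38.7% and 37.8% of all genes, and nothing is read from these counts. Irf7, Ifit1 and Ifitm3 left the second count, and Isg15 and Oasl2 entered it, under some of the alternatives. Without Ctrl frontal cortex replicate 1, Ifit3b passed 2-fold, at 1.02. Of the 65 other interferon-stimulated genes described below, 56 were tested between these groups, and 3 were called lower and 2 higher in cerebellum, against the same 25.1%. The 13 microglia and macrophage markers differed between the same groups by a median log2 value of -1.52, and their part was not tested.

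At the transcript level, 22 of the 38 transcripts were over 0.1 CPM in a group mean, 4 were at 0 in all 15 deep libraries, and 15 passed the filter on low counts in each region. In frontal cortex the called member transcripts were those of Ifit3 and Ifit3b, 2 of the 15 tested, against 3.22% of all transcripts tested. The same 2 were past the thresholds in cerebellum, where 4.76% of all transcripts were. The choice of Ifit3 came from that contrast and Ifit3b is its near copy, so nothing is read from the count in either region. Ifit3, Ifit3b, Ifit1, Isg15 and Ifitm3 have 1 transcript each, so gene and transcript values are the same data. Exons of Irf7, Isg15, Ifitm3 and Ifi27 overlap those of another gene on the opposite strand (Phrf1, Gm46878, Gm57251, and Gm53758 and Ifi27l2a), and with no strand stated for the counting, reads from such stretches are uncertain.

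Ifi27 has 9 transcripts, of which ENSMUST00000085065 carried most of the level, at 19.6 ± 0.57 CPM in Ctrl and 21.3 ± 0.77 CPM in Upf3b-KO frontal cortex (SD, n = 4 each; log2 fold change 0.06, SE 0.0505). ENSMUST00000066701 was at 4.30 ± 0.79 and 6.99 ± 1.2 CPM (log2 fold change 0.64, SE 0.185, adjusted p = 0.0527, edgeR), with Ctrl libraries from 3.60 to 5.40 CPM and Upf3b-KO libraries from 5.98 to 8.67 CPM. The Ifi27 transcripts ENSMUST00000122905 and ENSMUST00000148824, which retain an intron, ENSMUST00000140838, ENSMUST00000076788 and ENSMUST00000079294 were at most 0.658 CPM in any group mean. ENSMUST00000153670, which also retains an intron, was at 0.408 ± 0.55 CPM in Ctrl and 1.10 ± 0.37 CPM in Upf3b-KO frontal cortex (SD, n = 4 each), where the groups overlapped and it did not pass the test (adjusted p = 0.476, edgeR). In cerebellum it was at 0, 0.204, 0 and 0 CPM in Ctrl and at 0.647, 0.625 and 0.781 CPM in Upf3b-KO replicates 2 to 4, which did not overlap.

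Oasl2 was split between the protein-coding ENSMUST00000031542, at 1.42 ± 0.32 CPM in Ctrl and 2.16 ± 0.67 CPM in Upf3b-KO frontal cortex (SD, n = 4 each), and ENSMUST00000144064. The latter is annotated as a substrate of nonsense-mediated decay, the pathway Upf3b serves. It was at 2.10 ± 0.42 and 2.01 ± 0.56 CPM in frontal cortex (log2 fold change -0.13, SE 0.278, adjusted p = 0.838, edgeR), and at 2.28 ± 0.21 (n = 4) and 2.08 ± 0.43 CPM (n = 3) in cerebellum (log2 fold change -0.13, SE 0.227). Its groups overlapped in both regions. The intron-retaining Oasl2 transcript ENSMUST00000137828 was at most 0.184 CPM in a group mean.

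Irf7 has 13 transcripts, 5 of them over 0.1 CPM, and the estimates moved between similar protein-coding forms from library to library. ENSMUST00000026571 was at 0.651 to 1.17 CPM in Ctrl frontal cortex and 0.103 to 0.950 CPM in Upf3b-KO, and ENSMUST00000097952 was at 0 in 3 of 4 Ctrl libraries and 0.278 to 1.27 CPM in Upf3b-KO. The first did not pass the test (adjusted p = 0.592, edgeR) and the second was below the filter in frontal cortex and was not tested, so the values of the forms are given with no comparison. The other Irf7 forms, ENSMUST00000106023, ENSMUST00000127161 and the decay-annotated ENSMUST00000209899, were at most 0.25 CPM in a group mean. Bst2 had 1 transcript above 0.1 CPM, ENSMUST00000051672.

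The Ifit genes lie next to each other on chromosome 19, and the changes differed from gene to gene along it. Within 250 kb of the Ifit3 start the annotation has 19 genes, of which 10 passed the filter in frontal cortex and 9 in cerebellum. Ifit2, 32.9 kb away, was at 16.4, 17.3, 16.6 and 16.6 CPM in Ctrl and 38.8, 36.2, 37.4 and 37.8 CPM in Upf3b-KO frontal cortex. It rose, the opposite of Ifit3, by 1.09 on the log2 scale (SE 0.0463, adjusted p = 1.65e-14, edgeR). In cerebellum it rose from 12.5 ± 0.25 CPM (SD, n = 4) to 28.3 ± 0.87 CPM (n = 3), by 1.13 (SE 0.0563, adjusted p = 1.78e-12, edgeR), with no overlap in either region.

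Ifit1bl1, an Ifit1-like gene on the minus strand 18.5 kb from Ifit3, was at 4.38, 5.49, 3.97 and 4.25 CPM in Ctrl and fell to 1.49, 1.76, 1.71 and 1.60 CPM in Upf3b-KO frontal cortex (log2 fold change -1.54, SE 0.148, adjusted p = 1.35e-08, edgeR). In cerebellum it was low in both groups, at 0.634 ± 0.43 CPM (n = 4) and 0.647 ± 0.35 CPM (n = 3), a log2 fold change of -0.01 (SE 0.503). Ifit1bl2, which starts beside Ifit1 on the opposite strand, was at 1.01 ± 0.25 CPM in Ctrl and 1.73 ± 0.33 CPM in Upf3b-KO frontal cortex (log2 fold change 0.72, SE 0.234, adjusted p = 0.0134, edgeR), and at 0.40 (SE 0.377) on the log2 scale in cerebellum.

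The neighbours outside the family were not lower. Slc16a12, a creatine transporter gene, rose from 3.83 ± 0.38 to 8.01 ± 0.79 CPM in frontal cortex (SD, n = 4 each; log2 fold change 0.99, SE 0.111, adjusted p = 1.44e-07, edgeR), and its log2 fold change in cerebellum was 0.42 (SE 0.145). Lipa, the lysosomal acid lipase gene, had a log2 fold change of 0.18 (SE 0.0583, adjusted p = 0.0109, edgeR) in frontal cortex and went from 14.6 ± 0.53 (n = 4) to 26.3 ± 2 CPM (n = 3) in cerebellum, 0.79 on the log2 scale (SE 0.0627). Ch25h, itself inducible by interferon, was at most 0.526 CPM in any group mean. Gm26902, which overlaps it on the other strand, was at 0.0501 ± 0.046 CPM (n = 4) in Ctrl and 0.6 ± 0.21 CPM (n = 3) in Upf3b-KO cerebellum, with Ctrl libraries near the limit of 3 counts; without a stated strand, reads of these 2 overlapping genes cannot be told apart.

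**Figure D3:**
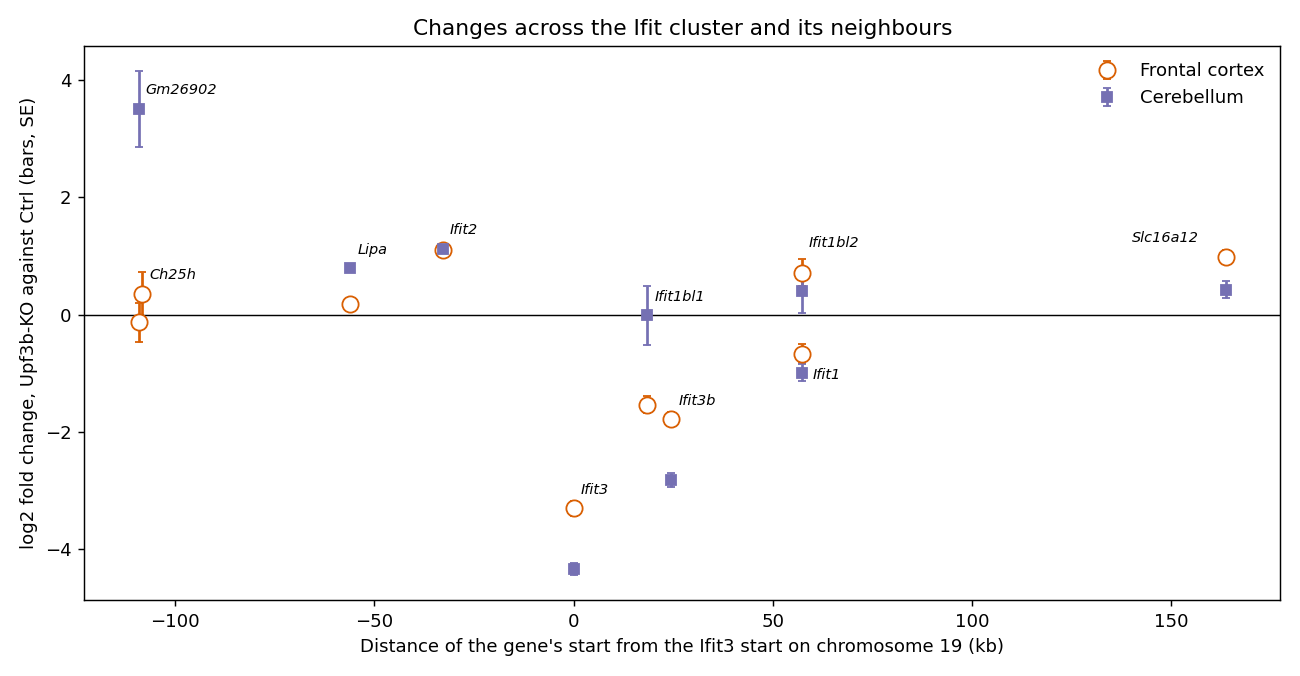
Log2 fold change of Upf3b-KO against Ctrl (vertical axis, bars are SE) against the distance of each gene's start from the Ifit3 start in kb (horizontal axis) for the 10 tested genes within 250 kb; open circles are frontal cortex and squares cerebellum. Ifit2, 32.9 kb to the left, is above 1 in both regions, and Ifit3 and Ifit3b are the lowest points.

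A list of 65 other interferon-stimulated genes was chosen by name. In frontal cortex 55 were tested, of which 1 was called lower and 4 higher, where the rule called 1.06% and 9.16% of all genes. The called genes were Ifit1bl1 and Ifit2 above and, all higher, Isg20, Tgtp1 and Trim30a. Isg20, an RNA exonuclease gene, rose from 0.457 ± 0.13 to 1.56 ± 0.069 CPM (SD, n = 4 each; log2 fold change 1.69, SE 0.275). Tgtp1, an interferon-inducible GTPase gene, rose by 1.09 on the log2 scale (SE 0.132) and Trim30a by 1.04 (SE 0.164). The largest adjusted p of these 3 was 2.17e-05 by edgeR's quasi-likelihood test. At an adjusted p under 0.05 alone, 6 of the 55 were lower and 15 higher, against 25.3% and 28% of all genes. The median log2 fold change of the list was 0.12, and that of all genes was 0.004.

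In cerebellum 56 of the list were tested, 0 were called lower and 2 higher, against 2.86% and 10.3% of all genes. At an adjusted p under 0.05 alone 9 were lower and 12 higher, against 31.3% and 33.1%, and the median log2 fold change was 0.01. The called genes were Ifit2 and Oas1c, an oligoadenylate synthetase gene, which rose from 0.385 ± 0.15 CPM (SD, n = 4) to 1.62 ± 0.13 CPM (n = 3; log2 fold change 2.01, SE 0.314, adjusted p = 1.63e-05, edgeR). Without Upf3b-KO replicate 4 the count of called genes was 4. The lowest log2 fold change on the list was -0.94, above those of Ifit3 and Ifit3b.

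Of 31 listed interferon ligands, receptors and signalling genes, 26 were tested in each region and 0 passed the study's thresholds by edgeR in either. Those thresholds called 1.06% of all genes lower and 9.16% higher in frontal cortex, and 2.86% and 10.3% in cerebellum. At an adjusted p under 0.05 alone, 3 were lower and 5 higher in frontal cortex, against 25.3% and 28% of all genes, and 8 lower and 4 higher in cerebellum, against 31.3% and 33.1%. The median log2 fold changes were 0.05 and -0.01. Stat2 and Irf9, transcription factors of the response, were looked up for their role, after their values were seen. Stat2 was at 14.3 ± 0.5 and 15.8 ± 2.3 CPM in frontal cortex (SD, n = 4 each; log2 fold change 0.07, SE 0.0828, adjusted p = 0.518, edgeR) and fell in cerebellum from 49.2 ± 0.34 (n = 4) to 30.4 ± 1.8 CPM (n = 3; log2 fold change -0.75, SE 0.0430, adjusted p = 1.51e-11, edgeR). Irf9 rose in frontal cortex from 6.18 ± 0.46 to 8.76 ± 0.67 CPM (n = 4 each; log2 fold change 0.43, SE 0.0954, adjusted p = 0.000679, edgeR) and had a log2 fold change of 0.09 (SE 0.0989, adjusted p = 0.438, edgeR) in cerebellum. The cerebellar libraries with lower Stat2 are those of the Upf3b-KO group, in which the marker sums given above moved both up and down. The part of those shifts in Stat2 was not tested.

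All 14 genes listed for MHC class I antigen presentation, a further target of interferon, were tested. In frontal cortex 0 passed the study's thresholds by edgeR, which called 1.06% of all genes lower and 9.16% higher. At an adjusted p under 0.05 alone 0 were lower and 4 higher, against 25.3% and 28% of all genes. In cerebellum H2-M3, a non-classical class I gene, rose from 2.23 ± 0.34 CPM (SD, n = 4) to 5.52 ± 1.7 CPM (n = 3; log2 fold change 1.26, SE 0.185, adjusted p = 8.1e-06, edgeR), and it was the single gene called. The study's thresholds called 2.86% of all genes lower and 10.3% higher there. At an adjusted p under 0.05 alone 2 were lower and 3 higher, against 31.3% and 33.1% of all genes.

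**Figure D4:**
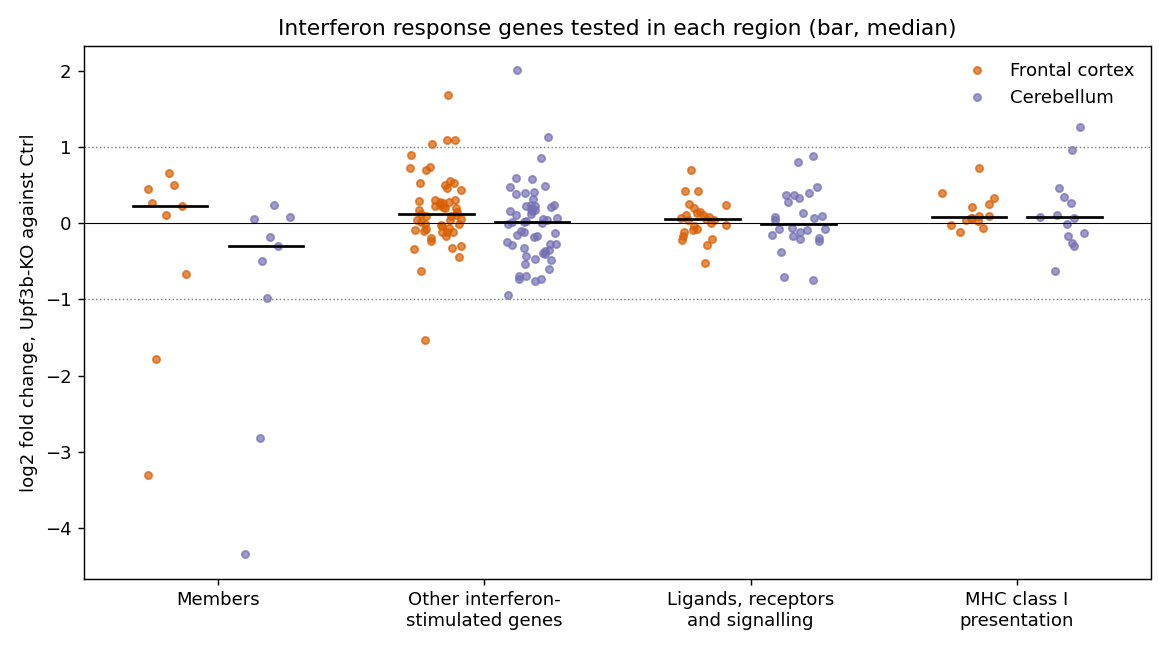
Log2 fold change of Upf3b-KO against Ctrl (vertical axis) for every tested gene of 4 lists in frontal cortex and cerebellum; each point is a gene, bars are medians and dotted lines mark 2-fold. Ifit3 and Ifit3b are the 2 lowest points in each region, and the lists other than the members have medians between -0.01 and 0.12.

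The 5 genes whose level followed that of Ifit3 most closely across the 15 deep libraries were not interferon-stimulated genes of these lists. Only these 5 were listed, and r is not given for Ifit3b or the other members. Among 16484 genes, Pearson's r of log2(CPM + 0.5) with Ifit3 was 0.990 for Socs6, a member of the suppressor of cytokine signalling family, 0.987 for Gm43670, 0.987 for Bhlhe40, a transcription factor gene, 0.985 for Prex2, a Rac exchange factor gene, and 0.984 for Hmgb1, a chromatin protein gene. The libraries fall into 4 groups, so these values describe differences between the groups and carry no p. The order of the Upf3b-KO groups was not shared by all. Ifit3 was at 1.46 CPM in Upf3b-KO frontal cortex and 1.33 CPM in Upf3b-KO cerebellum, and Prex2 at 121 and 129 CPM. Socs6 was at 31.8 ± 1.2 and 18.1 ± 0.44 CPM in frontal cortex (SD, n = 4 each) and 43.0 ± 1.6 (n = 4) and 17.4 ± 0.3 CPM (n = 3) in cerebellum. Gm43670, on chromosome 5, was at 2.55 ± 0.32 and 0.104 ± 0.085 CPM in frontal cortex and 6.25 ± 0.3 and 0.121 ± 0.043 CPM in cerebellum, with the same n.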

How the data were processed

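Total RNA was depleted of ribosomal RNA by the authors, used for SMART-Seq libraries and sequenced as read pairs. Per the labels and the paper's methods, reads were aligned with STAR 2.5.2b to GRCm39 and transcripts quantified with RSEM. The authors deposited RSEM's expected counts for each Ensembl transcript, in which reads that fit several transcripts are divided among them. No strand setting was stated in the sources used here.

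Here transcripts were joined to GENCODE vM39 (141102 of 142435 matched), summed per gene and rounded. CPM used the whole library. Genes were filtered (filterByExpr, minimum count 10 and total 15), scaled by TMM and tested with edgeR 4.0.16 (quasi-likelihood F test, R 4.3.3), p-values adjusted over all genes, and SE taken as the absolute log2 fold change over the root of F. The script was tested on simulated data. Groups followed the sample labels. DESeq2 1.42.0 and other settings were tried as alternatives. Named genes were all members with transcripts over 0.1 CPM, tested Ifit genes, called genes of the lists (at most 5 per region), the 5 genes most like Ifit3 and tested genes within 250 kb. The members and lists were chosen with earlier results of these data known. Sequences were read from the GRCm39 genome and GENCODE transcripts. One gene of the lists is not reported here.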

Additional observations from a re-analysis of the deposited data

How the results depend on the processing

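DESeq2, other scaling and the replicate block changed no count of called members and no call at the study's thresholds among the genes followed. Of 453 log2 fold changes recomputed, 10 changed sign, and all 10 were of genes not called: Ifit1bl1 in cerebellum (6 settings, up to 0.38, and 0.27 under the replicate block), Ifitm3 there (-0.021 under the block and -0.026 without Ctrl replicate 1), Bst2 there (-0.016 without Upf3b-KO replicate 2) and Bst2 between Ctrl regions (below). Of 288 adjusted p recomputed, 31 crossed 0.05, 29 of them between Ctrl regions, where no p is given for members, and 2 for Irf7 in frontal cortex. The replicate block put the log2 fold change of Ifit3 at -3.30 (frontal cortex) and -4.37 (cerebellum), with 2 members called in each, and same-numbered libraries did not deviate together (r from -0.0583 to 0.0615). Summing Ifit3 and Ifit3b left 1 called member in each region, and -3.52 for Ifit3 in cerebellum. At an adjusted p under 0.05, members called numbered 6 in frontal cortex, 4 in cerebellum and 6 between Ctrl regions, and other interferon-stimulated genes 21 of 55, 21 of 56 and 33 of 56, against 53.3%, 64.4% and 76.5% of all genes. Without the filter, 4 of the latter were called in cerebellum (8.44% of all genes), and with a minimum count of 50, 3 between regions (22.2%), where fewer genes were tested.

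Leaving out 1 library at a time gave Ifit3 log2 values from -3.44 to -3.24 in frontal cortex, -4.45 to -4.29 in cerebellum and 0.80 to 0.94 between Ctrl regions. Members called ranged from 2 to 2, 2 to 3 and 0 to 1, and other interferon-stimulated genes from 5 to 7, 2 to 4 and 5 to 7, against 9.91% to 10.4%, 12.2% to 13% and 24.8% to 25.2% of all genes. Bst2 between Ctrl regions ranged from -0.16 to 0.022, turning from -0.07 to 0.022 without Ctrl frontal cortex replicate 2. With all 8 cerebellar libraries Ifit3 was at -4.34.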
